A study of Homo sapiens with 12 samples.

Results

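The DNA replication licensing genes were followed across 4 groups of samples of G401, a human rhabdoid tumour cell line. The 10 members are MCM2, MCM3, MCM4, MCM5, MCM6, MCM7, CDC6, CDT1, ORC1 and GMNN. They were chosen by name and found by gene identifier, 1 row each, among the 57820 gene identifiers of the deposited tables. All 10 passed the filter on low counts, which left 15750 genes tested. By their labels all 12 samples were G401 cells with the genotype SMARCB1(-/-), that is, without the gene for a core subunit of the SWI/SNF chromatin remodelling complexes. Doxycycline induced either GFP, the control protein, or SMARCB1, and both kinds of cells were given DMSO, the solvent, or dBRD9-A for 24 h. dBRD9-A is a compound that brings about degradation of BRD9, a subunit of a non-canonical SWI/SNF complex. This gave 4 groups of 3 replicates, called here GFP or SMARCB1 cells, in DMSO or with dBRD9-A. All groups come from 1 cell line, the induced SMARCB1 comes from a transgene, and doxycycline is common to all groups.

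Licensing is the step that prepares origins of replication for a single use per cell cycle. The origin recognition complex, of which ORC1 is the largest subunit, binds origins, and CDC6 and CDT1 then load the ring of MCM2 to MCM7, the inactive replicative helicase, around the DNA in G1 phase. Geminin, the product of GMNN, binds CDT1 from S phase until mitosis and so blocks a second loading. Transcription of most of these genes is known to depend on E2F factors, which act in late G1 and S phase, whereas the CDT1, CDC6, ORC1 and geminin proteins are also controlled by regulated destruction that RNA levels do not show.

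Letter patterns of the E2F motif were sought in the start regions of the members. RefSeq start windows on GRCh38.p14 were found for 8 of the 10 members, with MCM4 and MCM5 lacking an entry. The spellings TTTCCCGC, TTTGGCGC, TTTCGCGC and TTTGCCGC of the E2F motif were searched on both strands of the 250 bases before each start. At least 1 of them occurred in 5 of 8 members, namely MCM3, MCM6, MCM7, CDT1 and GMNN, and in 3.4% of 27305 genes. After the sequences had been seen, the motifs were also shortened by their first T (7 letters) and the window was extended over the 50 bases after the start. In the longer window, which also holds the matches of MCM2 and CDC6, 7 of 8 members had an 8-letter match, against 3.99% of genes. All 8, ORC1 included, had a 7-letter match, against 15.3% of genes. CCAAT occurred before the start in 6 of 8 members and in 37% of genes. TTTGAA and TTTAAA, spellings of the CHR element of late cell cycle genes, occurred in 0 of 8 members and in 16.1% and 13.5% of genes. For each of these 8 members 1 stretch of 30 bases around the match nearest a start is given. Members with an 8-letter match include MCM6, CDC6, CDT1 and GMNN, which rose with SMARCB1 in DMSO relative to the bulk of genes. They also include MCM7, which fell, and MCM2 and MCM3, whose changes did not pass the threshold used below. MCM3, MCM6 and MCM7 hold further 8-letter matches outside the stretch given. A link between the letters and the changes was not tested. Capitals mark the 7-letter and 8-letter matches on either strand, some of which overlap one another, and CCAAT, where it overlaps them, is not marked separately.
MCM2: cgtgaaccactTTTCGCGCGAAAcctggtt
MCM3: agttcggaagtTTTCGCGCcggggtggagt
MCM6: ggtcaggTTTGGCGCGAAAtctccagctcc
MCM7: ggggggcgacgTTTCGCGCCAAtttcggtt
CDC6: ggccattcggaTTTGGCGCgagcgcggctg
CDT1: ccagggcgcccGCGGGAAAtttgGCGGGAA
ORC1: cacgccgaTTGGCGCGAAgttttcttttct
GMNN: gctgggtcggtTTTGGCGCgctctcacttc
On GRCh38.p14 the stretches lie at chr3:127598402-127598431 (MCM2, plus strand), chr6:52284728-52284757 (MCM3, minus), chr2:135876511-135876540 (MCM6, minus), chr7:100101388-100101417 (MCM7, minus), chr17:40287875-40287904 (CDC6, plus), chr16:88803743-88803772 (CDT1, plus), chr1:52404424-52404453 (ORC1, minus) and chr6:24775322-24775351 (GMNN, plus). The marked 8-letter match of GMNN begins 80 bases before a start and that of MCM7 begins 9 bases before one. A match is a run of letters and was not tested as a binding site.

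The libraries held 34.97 to 58.54 megacounts (1e6 counts) assigned to genes, and single members had between 1646 counts (CDT1) and 37688 counts (MCM4) in a library. SMARCB1 itself had 0 to 2 counts in each GFP library. In SMARCB1 cells in DMSO it reached 1880 ± 59.4 counts per megacount (CPM), and with dBRD9-A its level was 1310 ± 27 CPM (SD, n = 3). In GFP cells BRD9 RNA was at 38.3 ± 1.2 CPM without and 41.1 ± 0.849 CPM under dBRD9-A, a value that says nothing of the degraded protein. Of the rhabdoid line markers, VIM, KRT8 and KRT18 had group means of at least 1270 CPM and MUC1 of at most 0.249 CPM. The 9 matched markers of blood, endothelial, liver, epithelial and kidney cells summed to 0.421 to 1.26 CPM in a library, and PTPRC, CD3E and UMOD were at 0 in all libraries. Of all replicate pairs, those with SMARCB1 dBRD9-A replicate 2 differed most over all genes, with chi-square values (divided by their degrees of freedom) of 12.05 and 28.79 against 3.187 to 8.72 for the other pairs. Without that library the counts of members called below were the same. Synthetic spike-in RNAs took 0.9634% to 1.06% of counts in GFP cells with dBRD9-A, against 1.265% to 1.302% in GFP cells in DMSO, 1.085% to 1.21% in SMARCB1 cells in DMSO and 1.177% to 1.295% in SMARCB1 cells with dBRD9-A.

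Per kilobase of transcript the members spanned a wide range of levels. In GFP cells in DMSO the order was MCM7 at 176 ± 1.61 CPM per kb, MCM4 at 147 ± 3.29, MCM3 at 119 ± 1.76 and MCM2 at 108 ± 0.486 (SD, n = 3). MCM5 at 57.7 ± 1.04 and MCM6 at 57 ± 2.2 CPM per kb did not differ beyond their spread. GMNN followed at 47.1 ± 0.939, then ORC1 at 24.6 ± 0.614 and CDC6 at 24.4 ± 0.594 CPM per kb, which overlapped, and CDT1 at 14 ± 0.598. In SMARCB1 cells in DMSO the order changed among these neighbours. MCM6 there had 70.2 ± 2.58 CPM per kb, with every library above MCM5 at 65.4 ± 0.884, while GMNN at 64.8 ± 0.653 overlapped MCM5. CDC6 at 26.4 ± 0.48 lay above ORC1 at 22.8 ± 0.578 CPM per kb in every library. Lengths are those of the principal GENCODE 29 transcripts, which may not be the ones counted by the authors, so the order is approximate.

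**Figure D1:**
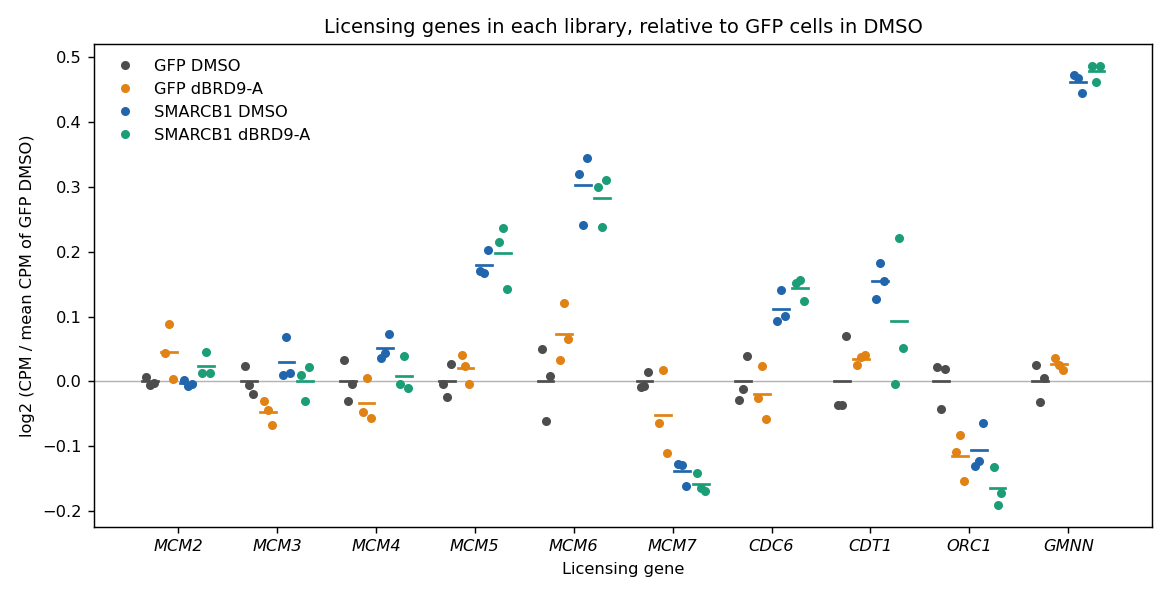
Level of each licensing gene in each of the 12 libraries, as log2 of CPM over the mean CPM of GFP cells in DMSO. Points are libraries, coloured by group, and bars are group means (n = 3). The SMARCB1 libraries lie apart from the GFP libraries for GMNN, MCM6, MCM5 and CDC6, and below those of GFP cells in DMSO for MCM7 and ORC1, whose log2 fold changes with spike-in scaling were 0.03 and 0.07.

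The first comparison was of SMARCB1 with GFP cells in DMSO, which asks what return of the missing subunit does to the licensing genes. GMNN, the inhibitor of licensing, rose most, by 37.6%, and MCM6 rose by 23.3%, MCM5 by 13.3%, CDT1 by 11.3% and CDC6 by 8.03%. MCM7 fell to 0.908 of its control level and ORC1 to 0.93 relative to the bulk of genes, though with libraries scaled to the spike-ins their log2 fold changes were 0.03 and 0.07. MCM2, MCM3 and MCM4 did not pass the test. In all, 7 of 10 members changed at a Benjamini-Hochberg adjusted p under 0.05 by the quasi-likelihood test of edgeR, of which 5 were higher and 2 lower. Among all genes tested 65% changed, 33.5% higher and 31.6% lower, so the share of members called was near the background. The median of their absolute log2 fold changes was 0.125, against 0.284 over all genes. Libraries of the groups did not overlap for 8 of 10 members, against 68.7% of all genes. In bulk RNA, a larger fraction of cells in a phase of the cell cycle and more RNA per cell cannot be told apart.

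Geminin RNA separated the cell states most clearly. GMNN had 60.46, 58.13 and 59.67 CPM in the GFP libraries in DMSO and 82.41, 82.15 and 80.87 CPM in the SMARCB1 libraries in DMSO. Every SMARCB1 library was above every GFP library, with gaps far wider than the spread within either group. The log2 fold change was 0.46 (SE 0.027, edgeR adjusted p = 7.58e-11), and 17.3% of all genes rose by more.

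Among the helicase subunits MCM6 and MCM5 rose. MCM6 had 220.3, 204 and 214 CPM in GFP cells and 265.5, 251.5 and 270 CPM in SMARCB1 cells in DMSO, a log2 fold change of 0.30 (SE 0.035, edgeR adjusted p = 7.04e-07). MCM5 had 203.3, 200.5 and 207.8 CPM in GFP cells and 229.4, 229 and 234.6 CPM in SMARCB1 cells, a log2 fold change of 0.18 (SE 0.028, edgeR adjusted p = 2.48e-05). For both subunits all SMARCB1 libraries were above all GFP libraries. MCM7, which carries the microRNA genes MIR106B, MIR25 and MIR93 within its locus, went the other way. It had 518.3, 518.8 and 526.8 CPM in GFP cells and 477.3, 477 and 466.4 CPM in SMARCB1 cells, a log2 fold change of -0.14 (SE 0.03, edgeR adjusted p = 0.000514), without overlap. AP4M1 overlaps MCM7 on the opposite strand, as TPRA1 does MCM2, and the use of strand in counting is not given in the sources used here, and reads of these overlapping pairs may not be separated. MCM2, MCM3 and MCM4 had log2 fold changes of -0.003, 0.03 and 0.05 (edgeR adjusted p = 0.932, 0.325 and 0.103). The 95% interval of MCM2 ran from -0.057 to 0.051 and that of MCM3 from -0.025 to 0.086. For MCM4, from -0.005 to 0.108, the libraries did not overlap although the test was not passed.

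The loading factors differed in direction. CDT1, which brings the helicase to the origin, had 44.09, 44.1 and 47.45 CPM in GFP cells and 49.4, 51.32 and 50.35 CPM in SMARCB1 cells in DMSO, a log2 fold change of 0.15 (SE 0.048, edgeR adjusted p = 0.009). CDC6, the ATPase that acts with it, had 115.1, 116.5 and 120.6 CPM in GFP cells and 125.2, 129.5 and 125.9 CPM in SMARCB1 cells, a log2 fold change of 0.11 (SE 0.029, edgeR adjusted p = 0.0024). Neither gene's libraries overlapped between the groups. ORC1, the subunit whose protein comes and goes with the cycle, was lower in SMARCB1 cells. It had 78.73, 75.32 and 78.62 CPM in GFP cells and 70.86, 71.26 and 74.2 CPM in SMARCB1 cells, a log2 fold change of -0.10 (SE 0.031, edgeR adjusted p = 0.00741), again without overlap.

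**Figure D2:**
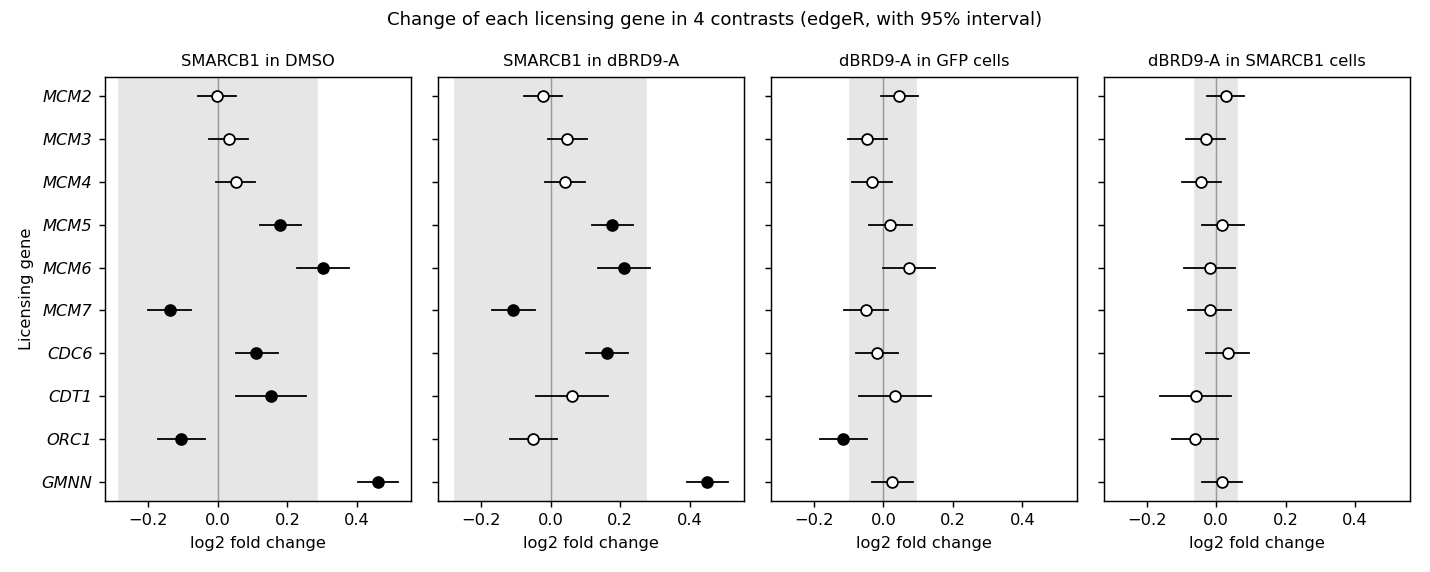
Log2 fold change of each licensing gene (points) with its 95% interval (lines) in 4 contrasts. Filled points have an edgeR adjusted p under 0.05, and the grey band spans the median absolute change of all genes tested, 0.284 for SMARCB1 in DMSO and 0.095 for dBRD9-A in GFP cells. GMNN in both SMARCB1 contrasts, MCM6 with SMARCB1 in DMSO and ORC1 with dBRD9-A in GFP cells lie outside the band. ORC1 with dBRD9-A in SMARCB1 cells, at -0.061, lies at the edge of its band of 0.06. ORC1 in GFP cells is the only filled point of the dBRD9-A contrasts.

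The opposite changes altered the make-up of the helicase RNAs while their sum moved little relative to the bulk of genes. MCM2 to MCM7 together had 2327 ± 28.6 CPM in GFP cells and 2386 ± 7.95 CPM in SMARCB1 cells in DMSO (SD, n = 3). The sums, 2297 to 2354 against 2380 to 2395 CPM, did not overlap. They depend on the scaling, and with spike-in scaling the log2 fold changes of these genes were 0.029 (MCM7) to 0.473 (MCM6). Of the counts of these 6 genes, MCM6 took 9.14% ± 0.243 in GFP cells and 11% ± 0.384 in SMARCB1 cells, and MCM5 took 8.76% ± 0.142 and 9.68% ± 0.0986. The share of MCM7 was 22.4% ± 0.33 in GFP cells and 19.8% ± 0.326 in SMARCB1 cells. For all 3 genes the shares did not overlap between the groups. The shares of MCM3, 16.4% and 16.3%, and of MCM4, 26.5% and 26.8%, overlapped between the groups, and that of MCM2 was 16.8% ± 0.14 and 16.4% ± 0.0817, without overlap. These shares rest on counts within a library and do not depend on how libraries are scaled to each other. The share of a gene also depends on the other genes of the sum, and MCM2 itself had a log2 fold change of -0.003. In GFP cells with dBRD9-A, where 0 of these 6 genes were called, the shares of MCM2 (17.5% ± 0.0967), MCM4 (26.1% ± 0.159) and MCM6 (9.69% ± 0.204) did not overlap those in DMSO either. The shares of MCM3, MCM5 and MCM7 did overlap.

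The log2 ratio of CDT1 to GMNN, the loader and its inhibitor, is likewise free of library scaling. It was -0.456, -0.399 and -0.331 in the GFP libraries in DMSO and -0.738, -0.679 and -0.684 in the SMARCB1 libraries in DMSO. All SMARCB1 values were lower. The difference of the means was -0.305, with an exact two-sided permutation p of 0.1, the smallest that 3 against 3 allows. With dBRD9-A the ratio was -0.404, -0.381 and -0.372 in GFP cells and -0.884, -0.634 and -0.829 in SMARCB1 cells. Here too every SMARCB1 value was lower, with a difference of -0.397 (exact permutation p = 0.1). dBRD9-A itself moved the ratio by 0.009 in GFP cells (exact permutation p = 0.8) and by -0.082 in SMARCB1 cells (exact permutation p = 0.4), with overlapping libraries in both. The latter value was -0.031 without SMARCB1 dBRD9-A replicate 1 and -0.156 without replicate 2. These were 4 comparisons, and with a smallest possible p of 0.1 none could pass a threshold of 0.05.

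The second comparison asked whether dBRD9-A changed the licensing genes in cells without SMARCB1. ORC1 alone passed the test, and it was lower. ORC1 had 71.9, 73.24 and 69.76 CPM with dBRD9-A, against the 75.32 to 78.73 CPM in DMSO given above, and the groups did not overlap. MCM3, at 363.5 to 373.1 CPM against 376 to 387.1 CPM in DMSO, also lay lower without overlap but did not pass the test, so 2 of 10 members did not overlap, against 34% of all genes. The log2 fold change of ORC1 was -0.12 (SE 0.032, edgeR adjusted p = 0.0195). That call was lost when GFP DMSO replicate 1 or 3, or GFP dBRD9-A replicate 1 or 3, was left out, with edgeR adjusted p = 0.0823, 0.0747, 0.0524 and 0.0945 in that order. Under spike-in scaling the log2 fold change was 0.24. Thus 1 of 10 members was called, against 15.9% of all genes, 7.43% higher and 8.47% lower. The other 9 members had log2 fold changes of -0.051 (MCM7) to 0.073 (MCM6), which became -0.087 for MCM7 without GFP dBRD9-A replicate 2, -0.022 for MCM7 without GFP dBRD9-A replicate 3 and 0.044 for MCM6 without GFP DMSO replicate 2. GMNN, for example, had 60.93, 60.47 and 60.15 CPM, inside or just above its range in DMSO. With libraries scaled to the bulk of genes the 95% intervals over all members stayed within -0.182 and 0.148. With spike-in scaling all 10 members were called higher, at log2 fold changes of 0.244 to 0.433. The median of all genes was then 0.357, and 11083 of 15750 genes were called higher. This contrast uses the GFP DMSO libraries, as the first one does.

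In SMARCB1 cells dBRD9-A changed no licensing gene past the threshold. edgeR called 0 of 10 members, against 1.93% of all genes, 0.679% higher and 1.25% lower. The 304 genes behind that share became 174, 171 and 195 without SMARCB1 DMSO replicate 2, SMARCB1 DMSO replicate 3 and SMARCB1 dBRD9-A replicate 3, and with any 1 library left out ranged from 171 to 423. No member had an unadjusted p under 0.05, and DESeq2 and limma-voom also called 0. Log2 fold changes ran from -0.061 for ORC1 to 0.033 for CDC6, and the 95% intervals lay between -0.161 and 0.093. With spike-in scaling the log2 fold changes were -0.2 to -0.103, with 0 members called, against 873 of 15750 genes. CDT1 was the most variable member, with 45.11, 52.71 and 46.84 CPM with dBRD9-A, the second replicate standing above the other two, against 49.4 to 51.32 CPM in DMSO. Its log2 fold change of -0.059 was -0.014 without SMARCB1 dBRD9-A replicate 1, -0.131 without replicate 2, the library that stands apart over all genes, and -0.037 without replicate 3. The part of that library in the spread of CDT1 was not tested further. ORC1, with 70.79, 67.98 and 68.87 CPM, was below its DMSO libraries without overlap, but its log2 fold change of -0.061 (-0.040 without SMARCB1 DMSO replicate 3) had an edgeR adjusted p of 0.457. MCM2 lay above its DMSO libraries without overlap, at 395.7 to 404.4 CPM against 390.3 to 392.5 CPM, and was not called either. These 2 of 10 members compare with 16.9% of all genes.

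The difference between the dBRD9-A effects in the presence and absence of SMARCB1 was tested directly as an interaction. edgeR called 0 of 10 members, against 3.8% of all genes, and no member had an unadjusted p under 0.05. DESeq2 and limma-voom gave 0 as well. The interaction was -0.09 for CDT1 (edgeR adjusted p = 0.56), -0.09 for MCM6 (edgeR adjusted p = 0.391) and 0.05 for ORC1 (edgeR adjusted p = 0.615), with 95% bounds over the members of -0.237 and 0.149. For CDT1 it was -0.048 without SMARCB1 dBRD9-A replicate 1 and -0.164 without replicate 2. Relative to the bulk of genes, the ORC1 call in GFP cells is not shown to differ from the change of ORC1 in SMARCB1 cells. With spike-in scaling the ORC1 interaction was -0.441 (edgeR adjusted p = 0.000111), and all 10 members were called, all negative. The median of all genes was then -0.491, and 11204 of 15750 genes were called negative.

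The comparison of SMARCB1 with GFP cells was repeated under dBRD9-A, with 6 libraries other than those in DMSO. The fit takes scaling and spread from all 12 libraries, so the SE and p-values of the 2 comparisons do not come from separate data. GMNN rose again, with 83.24, 81.82 and 83.2 CPM in SMARCB1 cells against 60.15 to 60.93 CPM in GFP cells, a log2 fold change of 0.45 (SE 0.028, edgeR adjusted p = 1.37e-10). MCM6 had 261.9, 251 and 264 CPM in SMARCB1 cells and 217.8, 231.3 and 222.7 CPM in GFP cells, a log2 fold change of 0.21 (SE 0.035, edgeR adjusted p = 5.37e-05). All SMARCB1 libraries were above all GFP libraries for both genes. MCM5 also rose, at a log2 fold change of 0.18 (edgeR adjusted p = 3.15e-05), as did CDC6 at 0.16 (edgeR adjusted p = 8.7e-05), and MCM7 fell, at -0.11 (edgeR adjusted p = 0.00454), or -0.071 without GFP dBRD9-A replicate 2 (edgeR adjusted p = 0.0348). Of these rises, that of GMNN stayed positive with spike-in scaling, at 0.124, but was not called (edgeR adjusted p = 0.0897), while MCM6, MCM5 and CDC6 were then at -0.12, -0.15 and -0.16. CDT1 had a log2 fold change of 0.06 (edgeR adjusted p = 0.29), which was -0.01 without the second SMARCB1 dBRD9-A replicate, and ORC1 had -0.05 (edgeR adjusted p = 0.185). MCM2, MCM3 and MCM4 were at -0.02, 0.05 and 0.04 and did not pass. In all 5 of 10 members were called, against 63.3% of all genes, with 4 higher (33% of all genes) and 1 lower (30.4%). Libraries did not overlap for 6 of 10 members and for 66.2% of all genes.

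**Figure D3:**
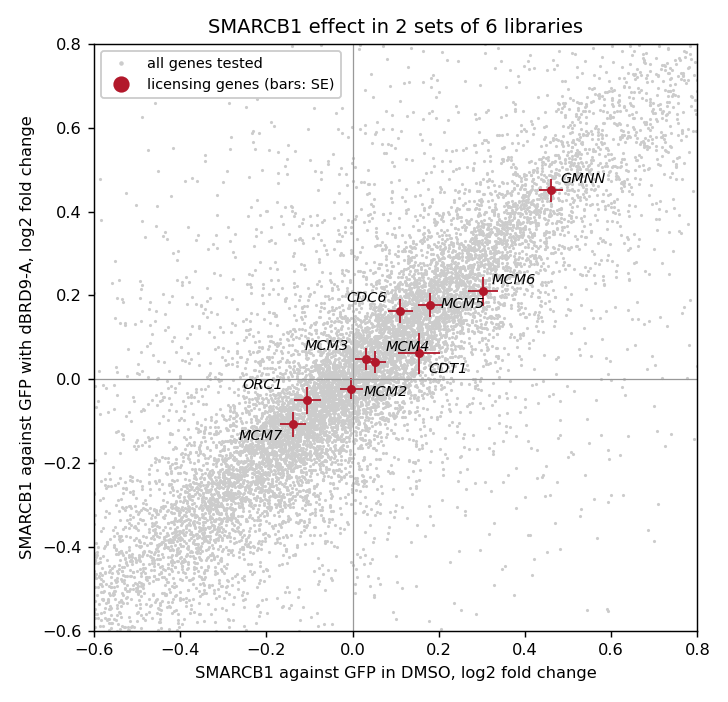
Log2 fold change of SMARCB1 against GFP cells in DMSO (horizontal) and with dBRD9-A (vertical), from 2 sets of 6 libraries with no library in common. Red points are the licensing genes with standard errors and grey points all genes tested within the axis limits. GMNN lies at 0.46 and 0.45, and the other members lie nearer to 0. With the TMM scaling plotted all 10 members have the same sign on both axes, and with spike-in scaling 1 of 10 has.

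Across the separate sets of libraries the sign of the SMARCB1 effect was the same for 10 of 10 members and for 86.7% of all genes with TMM scaling, but for 1 of 10 members (GMNN) and 55% of all genes with spike-in scaling. The 10 include MCM2 and CDT1, whose signs turned when 1 library was left out. The members called in both sets were 5 of 10, against 55.4% of all genes, and their median absolute log2 fold change was 0.125 in DMSO and 0.084 with dBRD9-A, against 0.284 and 0.275 over all genes. The induced SMARCB1 RNA was lower with dBRD9-A, 1310 against 1880 CPM, and its part in the size of these changes was not tested.

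Scaling the libraries to the spike-ins instead of to the bulk of genes moved all genes together. The all-gene median of the log2 fold changes became 0.165 for SMARCB1 in DMSO, 0.357 for dBRD9-A in GFP cells, -0.135 for dBRD9-A in SMARCB1 cells and -0.319 for SMARCB1 with dBRD9-A. The directions above are relative to the bulk of genes. With spike-in scaling 8 members were higher and 0 lower for SMARCB1 in DMSO, 10 were higher for dBRD9-A in GFP cells, and 8 were lower and 0 higher for SMARCB1 with dBRD9-A. Of 15750 genes 6831 were then higher and 2581 lower, 11083 higher and 227 lower, and 2129 higher and 9046 lower, in that order. GMNN had positive values in both SMARCB1 contrasts under either scaling, which under spike-in scaling were 0.63 in DMSO and, with the call lost, 0.12 under dBRD9-A (edgeR adjusted p = 0.0897). How the spike-ins were added is not given in the sources used here.

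**Figure D4:**
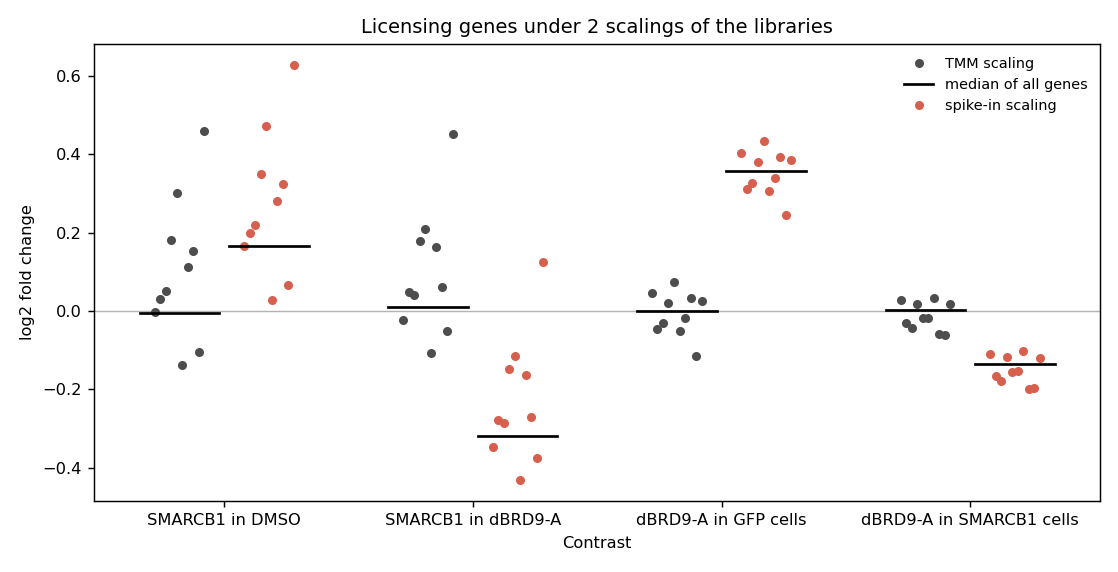
Log2 fold changes of the 10 licensing genes (points) and the median of all genes tested (bars) in 4 contrasts, with TMM scaling (grey) and with scaling to the spike-ins (red). Points and bars move together between the scalings, the bar for dBRD9-A in GFP cells from 0 to 0.357.

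Genes that act before and after licensing were taken from lists chosen by function. Their counts for SMARCB1 in DMSO stand against 33.5% of all genes higher and 31.6% lower. With spike-in scaling 6831 of 15750 genes were higher and 2581 lower. For SMARCB1 with dBRD9-A 33% of all genes were higher and 30.4% lower, and with spike-in scaling 2129 and 9046 of 15750. Of the other origin recognition genes, 3 rose and 2 fell among 6 tested for SMARCB1 in DMSO, and 3 rose and 0 fell with spike-in scaling. ORC2, which stays in the complex through the cycle, went from 76.2 ± 0.752 to 63.7 ± 2.03 CPM, a log2 fold change of -0.26 (SE 0.03, edgeR adjusted p = 6.19e-07), and ORC3 from 75.2 ± 1.19 to 63.5 ± 0.939 CPM, a log2 fold change of -0.24 (SE 0.028, edgeR adjusted p = 7.31e-07). Both were also lower in value under spike-in scaling, at -0.09 and -0.07. Of 4 tested helper genes and relatives of the helicase 1 rose and 3 fell, and 1 rose and 1 fell with spike-in scaling. MCM9, which acts in recombination repair with MCM8, went from 30.6 ± 0.357 to 16.9 ± 0.567 CPM, a log2 fold change of -0.86 (SE 0.049, edgeR adjusted p = 4.5e-11), larger than that of any of the 10 licensing genes. MCM8 had a log2 fold change of -0.18 (edgeR adjusted p = 0.00177), and -0.02 under spike-in scaling. For SMARCB1 with dBRD9-A 1 gene rose and 2 fell in each of these lists. With spike-in scaling 0 rose, and 5 origin recognition genes and 4 helper genes and relatives fell.

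Of the genes for origin firing and the active helicase, 13 rose and 6 fell among 23 tested for SMARCB1 in DMSO, with a median log2 fold change of 0.146 against -0.005 over all genes. Under spike-in scaling 15 rose and 2 fell. The cyclin E genes, whose products drive CDK2 at the start of S phase, went in opposite directions. CCNE2 went from 17.2 ± 0.446 to 26.9 ± 1.66 CPM, a log2 fold change of 0.64 (SE 0.047, edgeR adjusted p = 1.46e-09), and CCNE1 from 34.2 ± 0.486 to 25.4 ± 0.373 CPM, a log2 fold change of -0.43 (SE 0.036, edgeR adjusted p = 8.15e-09). Of the replication fork genes 8 rose and 13 fell among 28 tested, with a median of -0.067, but 10 rose and 1 fell under spike-in scaling. POLE4, a small subunit of DNA polymerase epsilon, rose by 0.50 on the log2 scale (SE 0.037, edgeR adjusted p = 1.54e-09), and ASF1B, a histone chaperone, by 0.40 (SE 0.03, edgeR adjusted p = 2.58e-09). For SMARCB1 with dBRD9-A 10 origin firing genes rose and 6 fell, with a median of 0.075. Of the replication fork genes 6 rose and 14 fell, with a median of -0.061. Under spike-in scaling 1 origin firing gene rose and 15 fell, and 0 replication fork genes rose and 23 fell.

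Genes that control the stability of licensing factors were the last of these lists. For SMARCB1 in DMSO 7 rose and 2 fell among 11 tested, with a median log2 fold change of 0.262, and 9 rose and 0 fell under spike-in scaling. CUL4B, a scaffold of the ubiquitin ligases that target CDT1, went from 90.2 ± 0.228 to 157 ± 0.856 CPM, a log2 fold change of 0.80 (SE 0.031, edgeR adjusted p = 1.97e-13). The 2 that fell were CUL4A, at -0.155 (edgeR adjusted p = 2.48e-05), and DDB1, at -0.079 (edgeR adjusted p = 0.0248). DTL, at 0.029, was not called (edgeR adjusted p = 0.521). FZR1, the CDH1 activator of the anaphase-promoting complex that targets geminin and CDC6, went from 37.2 ± 1.3 to 58.1 ± 1.33 CPM, a log2 fold change of 0.65 (SE 0.044, edgeR adjusted p = 6.14e-10). For SMARCB1 with dBRD9-A 8 of the 11 rose and 1 fell, with a median of 0.255. Under spike-in scaling 1 rose and 4 fell in that contrast. For dBRD9-A in GFP cells 3 rose and 3 fell among the 11, where 7.43% of all genes were higher and 8.47% lower. FZR1 rose by 0.17 on the log2 scale (edgeR adjusted p = 0.0188) and CUL4B was at -0.14 (edgeR adjusted p = 0.00508), which became 0.22 under spike-in scaling. In the same contrast 2 of 23 origin firing genes rose and 0 fell, TIMELESS by 0.19 (edgeR adjusted p = 0.00535) and CDK2 by 0.18 (edgeR adjusted p = 0.000337), and 2 of 28 replication fork genes rose, ASF1B by 0.16 (edgeR adjusted p = 0.00158) and RFC1 by 0.14 (edgeR adjusted p = 0.00328). Of 6 origin recognition genes ORC3 alone was called, at -0.13 (edgeR adjusted p = 0.00544), or 0.23 under spike-in scaling. With that scaling all 11, 23, 28 and 6 tested genes of these lists were called higher in this contrast. So were 11083 of all 15750 genes tested.

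**Figure D5:**
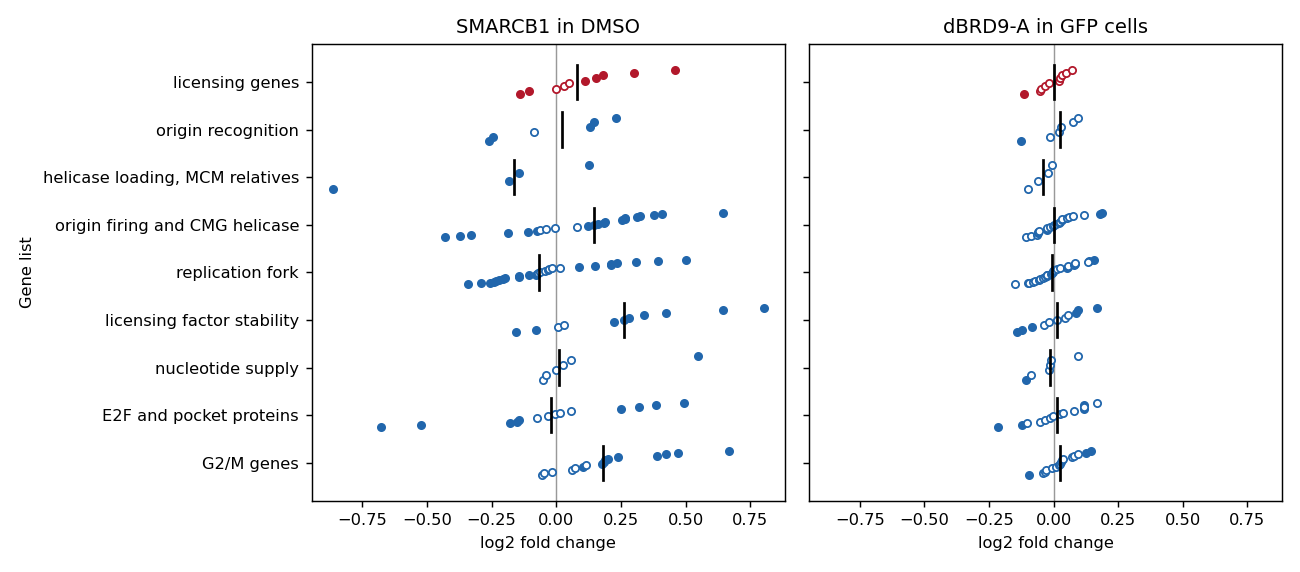
Log2 fold changes of the licensing genes (red) and of the genes of 8 related lists (blue), with SMARCB1 in DMSO (left) and with dBRD9-A in GFP cells (right). Filled points have an edgeR adjusted p under 0.05 and bars are list medians. The left panel spreads from MCM9 at -0.86 to CUL4B at 0.80, and the right panel is narrower.

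The genes whose profile was most like that of the helicase were sought among 12575 genes outside the 10, by the Euclidean distance over the 12 libraries between centred log2 CPM values and the mean profile of MCM2 to MCM7. The nearest were DCAF11 at 0.051, PPP1R8 at 0.061, NUP93 at 0.066, SLBP at 0.067 and MATR3 at 0.075. SLBP binds the stem-loop of histone RNAs and NUP93 is part of the nuclear pore. The profile itself is nearly flat, so the measure finds genes that changed little, for example DCAF11 with 58.8 ± 1.1 CPM in GFP cells and 61.9 ± 1.12 CPM in SMARCB1 cells in DMSO. MCM4, which is part of that mean, was at 0.08, and GMNN, which is not, at 0.683, with 7581 candidates nearer than GMNN.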

How the data were processed

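RNA of 12 samples in 4 groups of 3 was sequenced from TruSeq Stranded mRNA libraries, per the labels' protocols. The authors' deposited tables hold RSEM expected counts per gene. STAR, RSEM 1.3.1, DESeq2 and the build GRCh37 (hg19) are named in the submitters' processing notes; annotation and strand setting are not given in the sources used here. Libraries present in 2 tables had identical values in 6 of 6 repeated columns. Expected counts were rounded (2.57% of values were not whole), and 40 spike-in identifiers entered neither library sizes nor tests. Symbols were matched for 51996 of 57820 identifiers.

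edgeR 4.0.16 in R 4.3.3 was used with TMM factors (0.9765 to 1.016), filterByExpr at a minimum count of 10, 1 coefficient per group and a quasi-likelihood test. The fit was checked on simulated data with few changed genes and no difference in RNA content. That check does not cover the choice of scaling or changes as small as those of most members. P-values were adjusted by Benjamini-Hochberg over 15750 genes and genes under 0.05 were called. SE values derive from the quasi-F statistic, CPM values use TMM-scaled sizes, and ± is the SD over 3 replicates. The labels do not say that replicates were separate cultures, so p-values measure the spread between samples only. Same-numbered samples of different groups had correlations of -0.056 to 0.061 in their deviations from group means, so numbers were not taken as pairs. All 10 members are named. Of related lists, the 2 called genes with the largest change and a mean of at least 50 counts are named for SMARCB1 in DMSO and for dBRD9-A in GFP cells. Members and lists were chosen with earlier results of these data known. Alternatives were RLE factors, spike-in scaling, no filter, only the groups compared, a replicate block, each library left out, DESeq2 1.42.0, limma-voom (limma 3.58.1) and a minimum absolute log2 fold change of 1.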

Additional observations from a re-analysis of the deposited data

How the results depend on the processing

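The number of licensing genes called was the same as in the edgeR fit (7 for SMARCB1 in DMSO, 1 for dBRD9-A in GFP cells, 0 for dBRD9-A in SMARCB1 cells, 5 for SMARCB1 with dBRD9-A and 0 for the interaction) with RLE factors, with no filter, with DESeq2, with limma-voom and, except for the interaction, which has no such fit, with only the groups compared. With the replicate number as a block the counts were again 7, 1, 0, 5 and 0, and all genes called were 10113, 2233, 254, 9812 and 529. With each library left out in turn the counts were unchanged except for dBRD9-A in GFP cells, which ranged from 0 to 1. A minimum absolute log2 fold change of 1 left 0 members in every contrast, and 2305, 143, 23, 2300 and 42 of all genes, against 10245, 2504, 304, 9975 and 598. Of 990 values of a member in a contrast under an alternative, 916 had the same direction and the same side of the threshold. They include fits that left out a library of a group outside the contrast, which move its fold changes little or not at all.

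Spike-in scaling called 8 members for SMARCB1 in DMSO, 10 for dBRD9-A in GFP cells, 0 for dBRD9-A in SMARCB1 cells, 8 for SMARCB1 with dBRD9-A and 10 for the interaction (all negative), where the median of all genes was -0.491. Of all 15750 genes it called 9412, 11310, 873, 11175 and 11270 in the same contrasts and order. The share of calls that were higher was 72.6% against 51.4% for SMARCB1 in DMSO, 98% against 46.7% for dBRD9-A in GFP cells, 4.47% against 35.2% for dBRD9-A in SMARCB1 cells, 19.1% against 52% for SMARCB1 with dBRD9-A and 0.586% against 56.5% for the interaction. Log2 fold changes that turned direction under it were MCM2 0.165, MCM7 0.029 and ORC1 0.065 for SMARCB1 in DMSO. For dBRD9-A in GFP cells they were MCM3 0.312, MCM4 0.326, MCM7 0.306, CDC6 0.339 and ORC1 0.244, and for dBRD9-A in SMARCB1 cells MCM2 -0.109, MCM5 -0.118, CDC6 -0.103 and GMNN -0.12. For SMARCB1 with dBRD9-A they were MCM3 -0.279, MCM4 -0.286, MCM5 -0.148, MCM6 -0.116, CDC6 -0.163 and CDT1 -0.27, and for the interaction MCM3 -0.476, MCM7 -0.46, CDC6 -0.442 and ORC1 -0.441. The scaling moves every gene of a contrast by nearly the same amount, and whether it or TMM fits the RNA content of the cells was not tested.

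With no filter, 652 of all genes were called for dBRD9-A in SMARCB1 cells, and 156 with only the groups compared, and the interaction was 0.001 for MCM4, 0.01 for MCM5 and 0.003 for GMNN, all near 0 and not called. With a library left out, values near 0 also crossed it: MCM2 from -0.005 to 0.001 for SMARCB1 in DMSO, CDC6 from -0.041 to 0.001 for dBRD9-A in GFP cells, MCM5 from -0.002 to 0.045 and MCM6 from -0.048 to 0.003 for dBRD9-A in SMARCB1 cells, and MCM2 from -0.042 to 0 and CDT1 from -0.01 to 0.106 for SMARCB1 with dBRD9-A. For the interaction these ranges were -0.039 to 0.003 for MCM2, -0.027 to 0.009 for MCM4, -0.022 to 0.025 for MCM5 and -0.022 to 0.006 for GMNN. Depth was at least 34.97 megacounts, and counting error and 3 libraries per group both limit the precision.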

Other observations

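Genes that supply nucleotides, E2F factors with the pocket proteins that bind them, and genes of G2 and mitosis gave further values beside the licensing genes. For SMARCB1 in DMSO 33.5% of all genes were higher and 31.6% lower. With spike-in scaling 6831 of 15750 genes were higher and 2581 lower. TK1, which salvages thymidine, was the 1 gene called of 6 nucleotide supply genes, of which 4 were called, all higher, under spike-in scaling. It went from 74.6 ± 1.69 to 109 ± 5.02 CPM, a log2 fold change of 0.55 (SE 0.035, edgeR adjusted p = 2.25e-10). Of 14 E2F and pocket protein genes 4 rose and 5 fell, and under spike-in scaling 6 rose and 2 fell. E2F2, an activating E2F, went from 47.6 ± 0.812 to 29.8 ± 1.19 CPM, a log2 fold change of -0.68 (SE 0.039, edgeR adjusted p = 5.54e-11), and E2F5, a repressing one, from 103 ± 1.8 to 72 ± 0.878 CPM, a log2 fold change of -0.52 (SE 0.029, edgeR adjusted p = 2.94e-11). Of 16 G2 and mitosis genes 10 rose and 0 fell, with a median log2 fold change of 0.18 against -0.005 over all genes, and 14 rose under spike-in scaling. PLK1, a mitotic kinase, went from 95.5 ± 1.89 to 132 ± 4.27 CPM, a log2 fold change of 0.47 (SE 0.029, edgeR adjusted p = 1.29e-10). MKI67, a proliferation marker, had a mean of 44.3 ± 3.28 CPM in GFP cells and 69.7 ± 14.6 CPM in SMARCB1 cells, a log2 fold change of 0.67 with a larger error (SE 0.127, edgeR adjusted p = 0.000176). For SMARCB1 with dBRD9-A 10 G2 and mitosis genes rose and 2 fell, with a median of 0.102. Of nucleotide supply genes 3 rose and 0 fell, and of E2F and pocket protein genes 4 rose and 6 fell. Under spike-in scaling 0 genes of these lists rose, and 11, 5 and 11 fell in that order. Of all 15750 genes 2129 were then higher and 9046 lower.

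In GFP cells given dBRD9-A, where 7.43% of all genes were higher and 8.47% lower, 1 of 6 nucleotide supply genes was called, RRM2 at -0.11 on the log2 scale (edgeR adjusted p = 0.0218). Of the 14 E2F and pocket protein genes 2 rose and 2 fell, the latter being E2F2 at -0.21 (edgeR adjusted p = 0.000847) and RBL2 at -0.12 (edgeR adjusted p = 0.0364). Of the 16 G2 and mitosis genes 2 rose and 1 fell, with PLK1 at 0.14 (edgeR adjusted p = 0.00237) and AURKB at 0.13 (edgeR adjusted p = 0.0171). Under spike-in scaling 6 of 6, 13 of 14 and 16 of 16 genes of these lists were called higher, and RRM2, E2F2 and RBL2 had positive values of 0.26, 0.14 and 0.24. Of all 15750 genes 11083 were then called higher.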
